A study of Mus musculus with 9 samples.

Results

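The genes described here encode the proteins of the cytosolic ribosome. They were taken by symbol, as every gene named Rpl or Rps followed by a number, with an optional letter or l, plus Rplp0, Rplp1, Rplp2 and Rpsa, and without the Rps6k kinases and pseudogene symbols. On the array, 46 such genes had a probe set that names 1 gene alone, among 18193 genes measured in that way, and where a gene had several, the one whose log2 signal averaged highest over the 9 arrays stood for it. Of the 46, 24 belong to the large (60S) subunit and 22 to the small (40S) subunit. The reference annotation holds 85 symbols of this family: 29 of the others, among them Rpl3, Rpl5 and Rplp1, lie only on probe sets that also name other genes, and 10, among them Rps27a and Rpl10l, were not listed.

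RNA came from Reissner's membrane, the thin epithelial sheet that separates the endolymph of the scala media from the perilymph of the scala vestibuli in the cochlea, of adult mice. Membranes were dissected by hand, pooled, and hybridized to 3 arrays in each of 3 groups: explants kept for 24 h with the synthetic glucocorticoid dexamethasone at 100 nM, explants kept for 24 h without it, and fresh membranes whose RNA was extracted at once. The dose is typed in mM in the labels of arrays B and C of that group, and in nM for array A and in the design text. Each group was hybridized to 3 chips from pooled tissue, and nothing states that the chips came from separate pools, so p-values measure the spread between chips, which may be technical. Signals correlated at r = 0.992 to 0.993 between arrays of a group, and no 2 arrays held identical values. Of 8 epithelial markers listed for the membrane, 7 were on the array, and none of these stayed under a signal of 200 on all arrays; their summed signal was 76440.0 to 80949 on the dexamethasone arrays, 72334 to 73461 on the incubated arrays and 60257 to 64512 on the fresh arrays. The sum is carried by the strongest probe sets, and single markers went both ways: 4 were called higher and 3 lower in incubated against fresh membranes, and 4 higher and 3 lower in dexamethasone against incubated membranes.

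A eukaryotic ribosome pairs a small subunit, which reads the messenger RNA, with a large subunit, which joins the amino acids, and most of its proteins are present as a single copy. The genes are transcribed at high rates in nearly all cells. Their transcripts typically begin with a cytosine followed by a run of pyrimidines, the terminal oligopyrimidine (TOP) tract, through which the mTORC1 kinase pathway controls their translation. Array signals follow the RNA and not the translation of these transcripts.

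The promoters are shown because some of the genes carry short elements there that the choice by symbol did not use. RefSeq promoters (GRCm38.p6) were matched for 40 of the 46 genes and not for the other 6. The windows below run 5′ to 3′ on the gene's strand from 80 bases before the annotated start to 20 bases into the transcript, and capitals mark the letters CCGGAAG and the pyrimidine letters CTTTCC and, where it overlaps them, CTCTTTC. The 6 were picked to show promoters with and without the letters. Rpl37, Rps25 and Rpl41 carry CCGGAAG, Rpl35 carries pyrimidine letters, Rps10 carries both kinds, and Rplp0 carries none in its window.
Rpl37, chr15:5116533-5116632, plus strand: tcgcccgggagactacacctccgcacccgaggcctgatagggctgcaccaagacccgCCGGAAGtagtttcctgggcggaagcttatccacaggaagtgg
Rps25, chr9:44407634-44407733, plus strand: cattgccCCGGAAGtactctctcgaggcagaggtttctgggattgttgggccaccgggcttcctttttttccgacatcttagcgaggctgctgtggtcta
Rpl35, chr2:39005112-39005211, minus strand: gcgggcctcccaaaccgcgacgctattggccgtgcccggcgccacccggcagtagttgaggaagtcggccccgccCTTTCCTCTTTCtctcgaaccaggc
Rps10, chr17:27635225-27635324, minus strand: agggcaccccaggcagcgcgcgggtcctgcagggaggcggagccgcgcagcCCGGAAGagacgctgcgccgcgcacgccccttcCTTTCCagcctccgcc
Rplp0, chr5:115559387-115559486, plus strand: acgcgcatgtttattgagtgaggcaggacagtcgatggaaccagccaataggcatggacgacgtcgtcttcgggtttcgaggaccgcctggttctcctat
Rpl41, chr10:128549149-128549248, minus strand: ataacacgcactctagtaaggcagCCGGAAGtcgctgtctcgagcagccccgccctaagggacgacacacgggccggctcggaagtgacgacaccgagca

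The letters CCGGAAG, which hold the GGAA core that ETS family factors recognise, occurred on either strand between 250 bases before and 50 bases after the start in 20 of the 40 promoters (50%), against 12.9% of 17492 protein-coding and 9.93% of all 27025 promoters of the same length. The pyrimidine letters CTTTCC, read on the gene's strand within 50 bases of the start, occurred in 12 of 40 (30%), against 5.12% of protein-coding promoters. CTCTTTC in the same stretch occurred in 4 of 40 (10%), against 1.53%, and it can overlap CTTTCC, as it does in Rpl35. The TATA-box letters TATAAA occurred on the gene's strand between 50 bases before and 10 bases after the start in 0 of 40, against 4.05% of protein-coding promoters. These letters were picked after the promoters had been read, and a match describes the sequence without showing that a factor binds there. Among the windows shown, only Rpl35 and Rps10 have a cytosine and pyrimidines at the annotated start. For Rpl37, Rps25, Rplp0 and Rpl41 the annotated start does not show a TOP tract.

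Of the 46 genes, 42 passed the signal filter, a signal of 200 or more on at least 3 arrays. Most hybridized strongly, with a mean signal over 10000 in 32 of the 42 and over 5000 in 34. Signals of different probe sets depend on their probes and are not compared between genes. The highest signal on each array lay between 28687.9 and 38237, and the files do not say which probe sets were saturated, which would shrink the differences of the strongest members. Ribosomal protein genes have many processed pseudogenes and near copies, and part of the signal may come from such copies. Of the 46 representative probe sets, 31 carry a name suffix for probes shared between transcripts. The suffix a marks transcripts of the same gene, while s and x mark similar transcripts of other genes too. The 4 genes that did not pass were Rps16, Rps27, Rpl39l and Rpl3l.

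**Figure D1:**
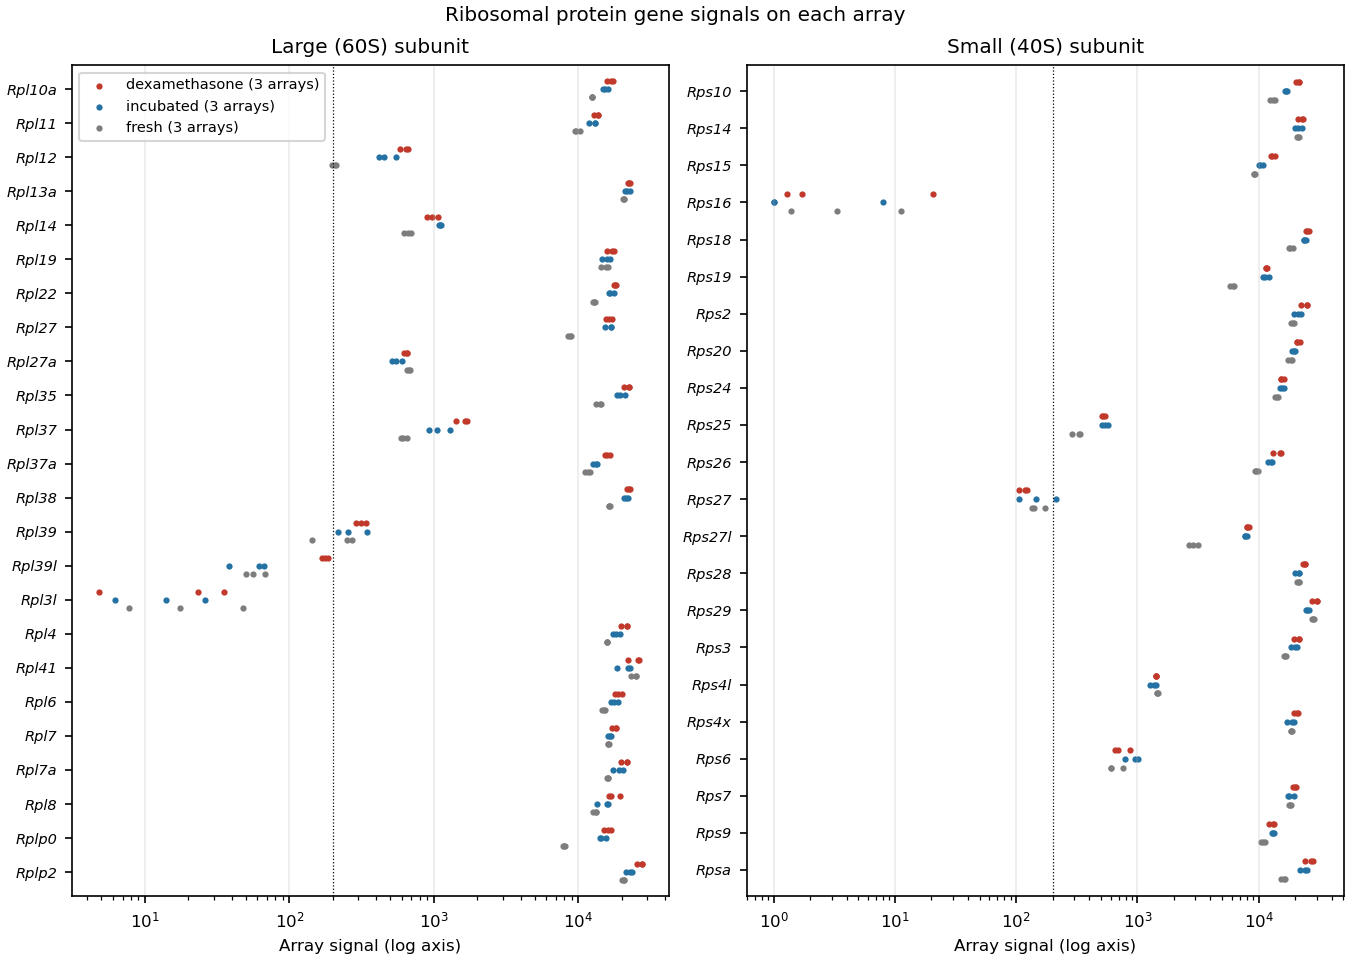
Signal of each of the 46 genes on every array (log axis), with dexamethasone (red), incubated (blue) and fresh (grey) arrays as 3 points each; the dotted line is the signal of 200 used as the floor. For 32 genes the mean signal is over 10000, and for most genes the fresh points lie to the left of the incubated points, most widely for Rps27l, Rpl12 and Rps19.

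In membranes kept for 24 h, most ribosomal protein genes had higher signals than in fresh membranes. limma called 29 of the 42 higher and 3 lower at an adjusted p under 0.05, and 10 were not called. Among all 18913 probe sets tested, 35% were called higher and 40.1% lower, together 75.1%, beside 32 of the 42 members called in either direction. The median change of the 42 was 0.25 on the log2 scale, against -0.050 for all tested probe sets, and single genes ranged from -0.26 to 1.43. By subunit, 16 of 22 large-subunit genes were called higher and 2 lower, with a median of 0.26, and 13 of 20 small-subunit genes were called higher and 1 lower, with a median of 0.22. The 3 incubated arrays lay wholly above the 3 fresh arrays for 29 genes and wholly below for 4, against 35.7% and 41.1% of all tested probe sets.

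The change of most members was small: 9 of the 42 exceeded 0.5 on the log2 scale and 2 exceeded 1. The 34 strongly hybridized members gave 24 higher and 2 lower, with a median of 0.23. The 8 members with a mean signal up to 5000 gave 5 higher and 1 lower, with a median of 0.59. Rpl12, Rpl37, Rpl14 and Rps25, whose rises are given below, are among these 8. Over all 83 tested probe sets of the 42 genes, 61 were higher and 7 lower. On the 98 tested probe sets that name a ribosomal protein gene beside other genes, 53 were higher and 13 lower, with a median of 0.20.

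Rps27l, the paralogue of Rps27 that is known in human cells as a target of p53, changed most. Its signals were 7760.2, 7936.6 and 7734.3 on incubated arrays, against 3138.4, 2682 and 2860.9 on fresh arrays, and all incubated values lay far above the fresh ones. The change was 1.43 ± 0.054 on the log2 scale (SE, limma adjusted p = 1.4e-10), a 2.69-fold difference. Its parent Rps27 did not pass the filter, with signals of 214, 105.1 and 145.3 on incubated arrays and 172.3, 140.5 and 133.8 on fresh arrays, which overlap. Rps27 is a core component of the small subunit, so this low signal describes the one probe set that names it alone.

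The stalk of the large subunit recruits the elongation factors. Rplp0, the protein at its base, had signals of 15451.7, 14145.8 and 14292.1 on incubated arrays, against 7856.1, 8045.6 and 7937.8 on fresh arrays. It rose by 0.88 ± 0.052 (SE, limma adjusted p = 8.1e-09), with no overlap. Rpl12, which sits beside it, had 449, 545.4 and 419.9 on incubated arrays, against 206.2, 197.8 and 210.5 on fresh arrays, a rise of 1.08 ± 0.10 (adjusted p = 6.0e-07). Rplp2, an acidic protein of the stalk's flexible arm, had 23637.7, 21332.7 and 22675 on incubated arrays and 19960.7, 20557.6 and 20594.9 on fresh arrays. Its rise was 0.15 ± 0.050 (adjusted p = 0.019), so the 3 stalk genes moved in one direction by unequal amounts.

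Among small-subunit genes, Rps19, the gene most often mutated in human Diamond-Blackfan anaemia, had 12248.5, 11252.3 and 10927.3 on incubated arrays, against 6098.3, 6260.2 and 5782.8 on fresh arrays. It rose by 0.92 ± 0.051 (limma adjusted p = 4.4e-09). Rpsa, also known as the laminin receptor precursor, had 24878.3, 21783.2 and 23934.6 on incubated arrays, against 15138.1, 16235 and 16504.7 on fresh arrays, a rise of 0.56 ± 0.065 (adjusted p = 4.8e-06). Neither gene's groups overlapped. Rps25, a protein of the small subunit's head, had 571.7, 545.1 and 506.6 on incubated arrays and 333.4, 331.2 and 291.3 on fresh arrays, a rise of 0.71 ± 0.084 (adjusted p = 5.7e-06). Rps6, the substrate of the S6 kinases, had 947.5, 785 and 1007.9 on incubated arrays, against 607.9, 600.3 and 753.3 on fresh arrays, a rise of 0.46 ± 0.12 (adjusted p = 0.0038) whose groups came close without overlapping.

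Among large-subunit genes, Rpl27 had 16759.4, 15286.3 and 16794.8 on incubated arrays, against 8468.1, 8718.4 and 8945.7 on fresh arrays. The incubated values were all far above the fresh ones, a rise of 0.90 ± 0.051 (limma adjusted p = 6.0e-09). Rpl37 had 931, 1295.8 and 1051.4 on incubated arrays and 651.6, 613.1 and 593.7 on fresh arrays, a rise of 0.78 ± 0.10 (adjusted p = 1.9e-05). Rpl14 had 1092.6, 1125.3 and 1106.4 on incubated arrays and 665.9, 690.9 and 623.1 on fresh arrays, a rise of 0.72 ± 0.072 (adjusted p = 1.2e-06). Groups of all 3 genes were apart. Rpl11, which binds and restrains the p53 regulator Mdm2, had 13112.7, 11890.3 and 12938.4 on incubated arrays, against 9420.9, 10249.2 and 9636.7 on fresh arrays, and rose by 0.37 ± 0.052 (adjusted p = 2.6e-05).

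Only Rpl27a, Rps29 and Rpl41 were called lower in incubated membranes among the 42. Rpl27a had 516.3, 543.2 and 604.8 on incubated arrays, against 672.1, 687.2 and 652.4 on fresh arrays, and fell by 0.26 (SE 0.074, limma adjusted p = 0.0061). Rps29, a zinc-binding protein of the small subunit's head, had 26072.1, 24386.1 and 24790.7 on incubated arrays, against 27361.6, 27853.2 and 28747 on fresh arrays, and fell by 0.16 (SE 0.048, adjusted p = 0.0098). Rpl41, whose product is a very short peptide at the interface of the subunits, had 22747, 18630 and 21942.1 on incubated arrays, against 23207.3, 25224.9 and 25191.3 on fresh arrays, and fell by 0.22 (SE 0.080, adjusted p = 0.023). None of the 3 was called lower when each array was centred on its median or scaled to its hybridization controls. Their changes were 0.066 to 0.17 there and Rps29 was called higher, while all tested probe sets had a median of 0.28.

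Genes with probe sets that disagreed were Rpl41 and Rpl22. For Rpl41, the other 3 tested probe sets changed by -0.48, 0.44 and 0.55, all called by limma, so its direction depends on the probe set. Rpl22, an RNA-binding protein of the large subunit, rose by 0.39 on its representative probe set and by 1.87 on another, and fell by 1.03 on the remaining one. A single direction for these 2 genes is not given by the array.

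Other members of interest were not called in the deposited scaling. Rpl13a, which in human myeloid cells leaves the ribosome to silence inflammatory transcripts, had a change of 0.082 ± 0.042 (limma adjusted p = 0.092), and Rps4x, encoded on the X chromosome, one of -0.0090 ± 0.052 (adjusted p = 0.88). Rps4l, annotated by RefSeq as a transcribed pseudogene, had -0.10 ± 0.056 (adjusted p = 0.11). After median centring or with the hybridization controls, Rps4l at 0.22, Rps4x at 0.32, Rpl13a at 0.41 and Rpl39 at 0.61 were all called higher. All tested probe sets had a median of 0.28 in both of these settings. Rpl13a and Rpl39 were also called higher after quantile normalization. Rpl39, which lines the peptide exit tunnel, had signals of 215.7, 254.7 and 345.3 on incubated arrays and 143.1, 272.6 and 250.1 on fresh arrays, with a change of 0.28 ± 0.20 (adjusted p = 0.22). Its germ-cell paralogue Rpl39l stayed at 38.1 to 66.6 on incubated arrays and 50.4 to 67.5 on fresh arrays. Rpl3l, a muscle paralogue of Rpl3, stayed under 50 on every array. Rps16 did too, and as with Rps27 this low signal describes the probe set that stands for the gene.

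**Figure D2:**
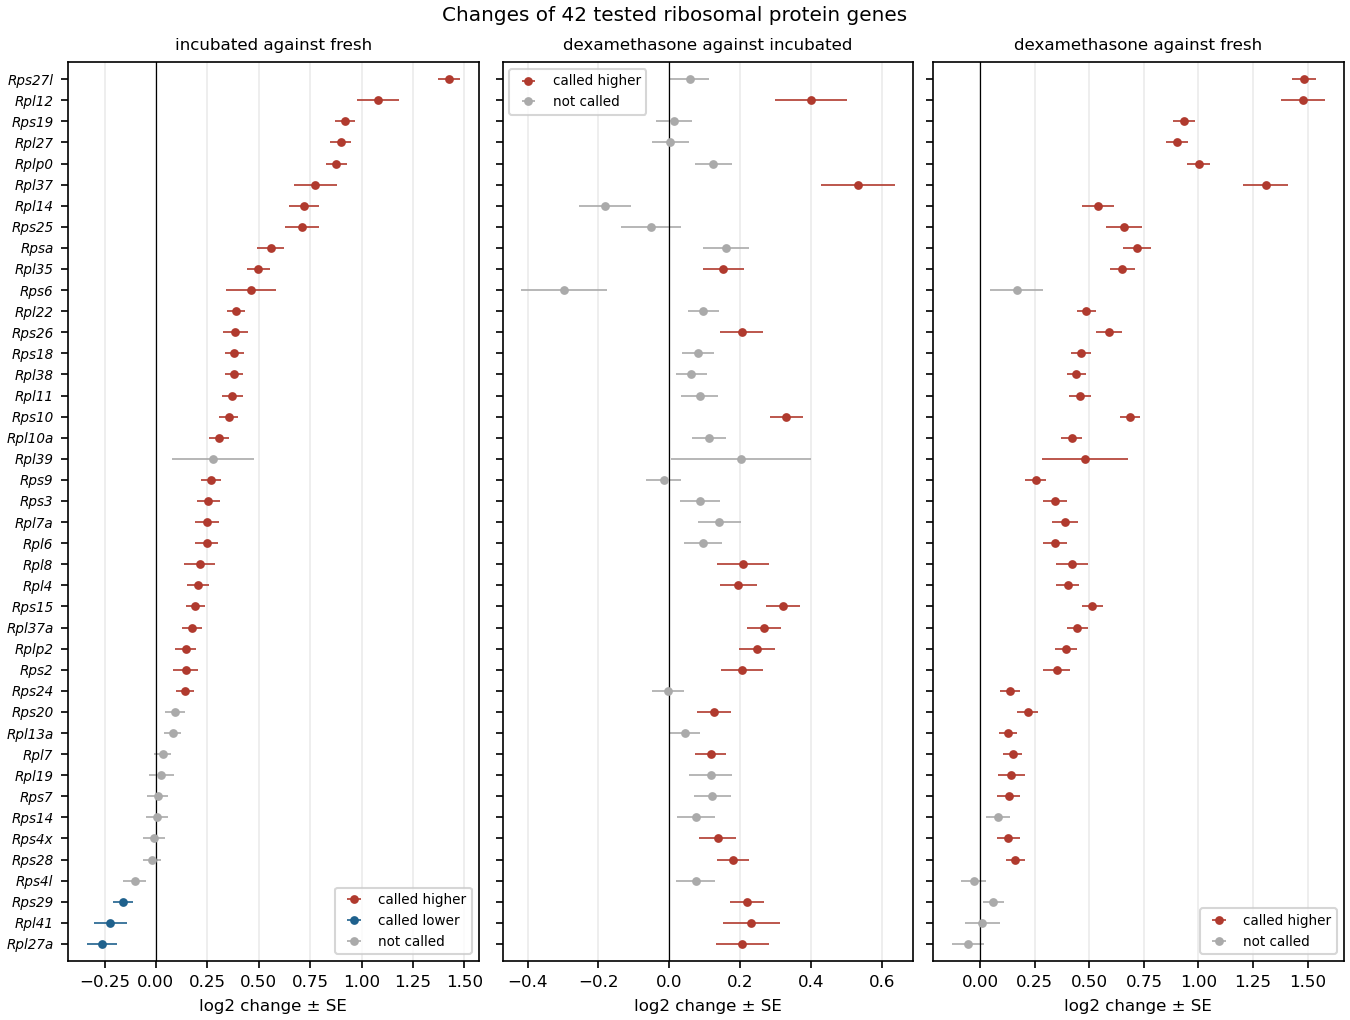
Log2 change ± SE of the 42 tested genes in the 3 comparisons, in the order of the incubated against fresh change, with red for genes called higher, blue for genes called lower and grey for genes not called (limma, adjusted p under 0.05). In the first panel 29 genes are red and 3 blue; in the second 18 and in the third 36 are red.

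Other measurements moved with the same comparison. The ratio of 3′ to 5′ probe sets, a measure of RNA length after amplification, was 1.86 to 1.96 for beta-actin on incubated arrays and 3.97 to 4.26 on fresh arrays, and 3.46 to 3.88 and 6.91 to 7.53 for Gapdh. Markers of other cochlear cells differed as well. All 6 neuron markers were lower in incubated membranes, with a summed signal of 138 to 179, against 22955 to 24035 in fresh membranes. All 6 cochlear fibrocyte markers were lower too, with 3768 to 4057 in incubated membranes and 60443 to 62327 in fresh ones. These lists had no member under 200 on all arrays. The sum over 8 macrophage markers was 6012 to 6370 in incubated membranes and 5538 to 5941 in fresh ones, and that over 4 Schwann cell markers 11847 to 12777 and 15306 to 15814. Single markers went both ways: 5 macrophage markers were called higher and 2 lower, and 1 Schwann cell marker higher and 2 lower. Erythroid markers summed to 136 to 176 and 2867 to 3061, strial markers to 538 to 599 and 3245 to 3407, and bone markers to 109 to 147 and 714 to 951. In these lists Mag of Schwann cells, Hba-a1 of erythroid cells, Tyr of the stria, and Ibsp and Sp7 of bone were under 200 on all arrays. The mesothelium markers Upk3b, Lrrn4 and Wt1 were also under 200 on all arrays, and that list of 5 summed to 1276 to 1344 in incubated and 249 to 356 in fresh membranes. The part of these differences in the ribosomal protein result was not tested. In whole tissue, fewer cells of a type and less RNA per cell cannot be told apart.

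Other ways of scaling the arrays gave more calls of a rise. Quantile normalization gave 34 higher and 1 lower, against 38.3% and 36.1% of all tested probe sets, with a median of 0.28 against 0.018. Centring on the array median gave 40 higher and 0 lower, against 53.5% and 23.6% of all tested probe sets, with a median of 0.58, and moved the median of all tested probe sets to 0.28. Scaling to 9 hybridization controls also gave 40 and 0, against 52.3% and 22.6%, again with a median of 0.58 against 0.28 for all tested probe sets.

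With dexamethasone, the members had slightly higher signals than in explants without it. limma called 18 of 42 higher and 0 lower, where 24 and 2 passed an unadjusted p under 0.05. The background was 27.1% higher and 25.5% lower, together 52.5%. The median change was 0.12 on the log2 scale, against 0.0071 for all tested probe sets, and the calls ran from 0.12 to 0.53. The dexamethasone arrays lay wholly above the incubated arrays for 19 genes and wholly below for 1, against 30.2% and 29% of all tested probe sets. By subunit, 10 of 22 large-subunit and 8 of 20 small-subunit genes were called higher.

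The direction of this difference depends on how the arrays are scaled. After quantile normalization 6 members were higher and 6 lower, with a median of -0.010 where all tested probe sets had -0.020, and with 24% of these called higher and 27% lower. After median centring 5 were higher and 2 lower, against 18.3% and 36.8% of all tested probe sets, with a median of 0.0071 where all tested probe sets had -0.11. Scaled to the hybridization controls, 0 were higher and 37 lower, against 6.51% and 72.6% of all tested probe sets, with a median of -0.35 where all tested probe sets had -0.47. The mean log2 signal of those controls was 11.04 to 11.13 on dexamethasone arrays, 10.56 to 10.67 on incubated arrays and 10.85 to 10.97 on fresh arrays. Median centring and hybridization controls shift all genes of an array alike and leave the distance between the members and all tested probe sets as it was.

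**Figure D3:**
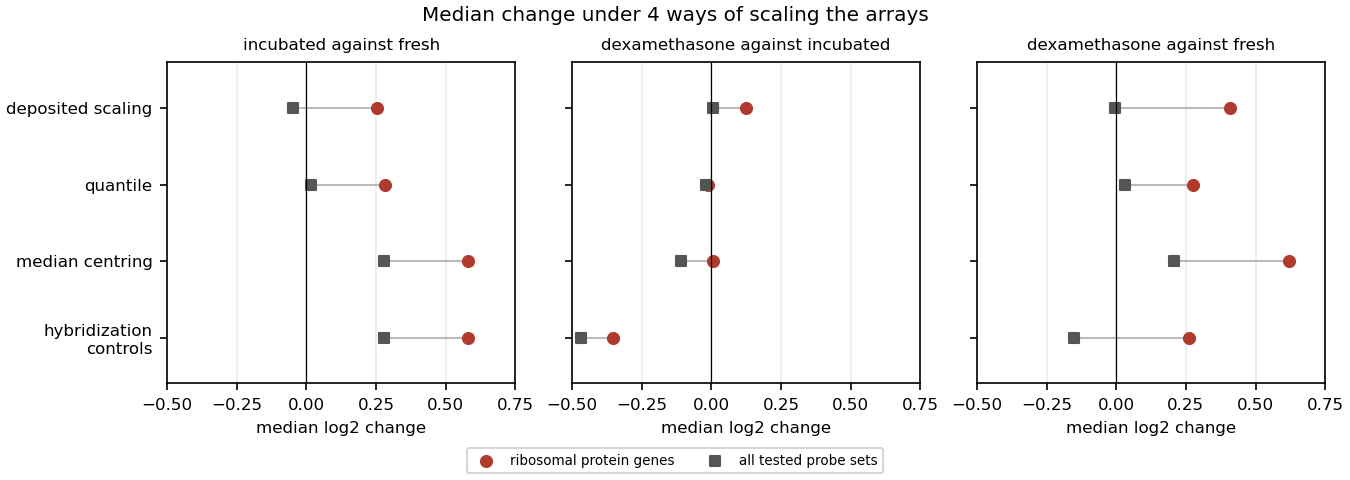
Median log2 change of the 42 ribosomal protein genes (red circles) and of all tested probe sets (dark squares) under 4 ways of scaling the arrays, in the 3 comparisons. In the dexamethasone against incubated panel the members' median runs from 0.12 to -0.35 and comes close to that of all tested probe sets in the quantile row. Median centring and hybridization controls keep the distance between the 2 symbols by construction.

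Beside it, the 3′ to 5′ ratio was 1.79 to 1.96 for beta-actin with dexamethasone and 1.86 to 1.96 without, and 5.02 to 5.47 and 3.46 to 3.88 for Gapdh. Macrophage markers summed to 7194 to 7263 with dexamethasone and 6012 to 6370 without, Schwann cell markers to 14165 to 15478 and 11847 to 12777, mesothelium markers to 1064 to 1136 and 1276 to 1344, erythroid markers to 14.3 to 105.4 and 136 to 176, bone markers to 153 to 189 and 109 to 147, and strial markers to 460 to 496 and 538 to 599. Single macrophage markers went both ways, with 3 of 8 called higher and 2 lower with dexamethasone. The part of these differences in the result was not tested.

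Rpl37, Rpl12, Rps10, Rps15 and Rpl37a were called higher with dexamethasone under the deposited, quantile and median-centred scalings alike. Rpl37 had 1688.1, 1634.5 and 1426.8 on dexamethasone arrays, against 931, 1295.8 and 1051.4 on incubated arrays, with no overlap, and rose by 0.53 ± 0.10 (limma adjusted p = 0.0010). Rpl12 had 586.1, 660.7 and 640.2 on dexamethasone arrays and 449, 545.4 and 419.9 on incubated arrays, a rise of 0.40 ± 0.10 (adjusted p = 0.0053). Rps10, a small-subunit protein that is ubiquitinated when ribosomes collide, had 21441.9, 20335.6 and 21388.3 on dexamethasone arrays, against 16959.8, 16702.4 and 16540.9 on incubated arrays. It rose by 0.33 ± 0.046 (adjusted p = 8.1e-05), with the groups well apart. Scaled to the hybridization controls, limma called none of the 5 higher and Rpl37a lower, and their changes ran from -0.21 for Rpl37a to 0.056 for Rpl37.

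Rps15, whose product lies near the decoding site, had 13739.5, 12631.4 and 12791.5 on dexamethasone arrays, against 10898.2, 10084.7 and 10338 on incubated arrays, a rise of 0.32 ± 0.047 (limma adjusted p = 1.2e-04). Rpl37a had 16442.9, 15201.4 and 15683.5 on dexamethasone arrays and 13317.2, 12578.3 and 13404.5 on incubated arrays, a rise of 0.27 ± 0.048 (adjusted p = 5.4e-04). All dexamethasone values of both genes were above all incubated ones. Rplp2 rose by 0.25 ± 0.050 (adjusted p = 0.0013) and Rpl8, a protein near the peptidyl transferase centre, by 0.21 ± 0.074 (adjusted p = 0.032), but scaled to the hybridization controls they changed by -0.23 and -0.27. Rplp0 had 0.12 ± 0.052 (adjusted p = 0.061) and Rpsa 0.16 ± 0.065 (adjusted p = 0.056).

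In the deposited scaling, the 3 genes called lower in incubated than in fresh membranes were called higher with dexamethasone than without, and the 2 comparisons share the incubated arrays. Rps29 had 29975.3, 27574.1 and 30023.9 on dexamethasone arrays, a rise of 0.22 ± 0.048 over the incubated values given above (limma adjusted p = 0.0023). Rpl41 had 25870.8, 22178.8 and 26218 on dexamethasone arrays, 0.23 ± 0.080 higher (adjusted p = 0.028) though its lowest value overlapped the incubated ones. Rpl27a had 652.8, 625.4 and 652.1 on dexamethasone arrays, 0.21 ± 0.074 higher (adjusted p = 0.034). None of these 3 rises was called after quantile normalization, where the changes were 0.038 to 0.18, or after median centring, where they were 0.090 to 0.12. Scaled to the hybridization controls the 3 were instead called lower with dexamethasone, at -0.24 to -0.27. Between dexamethasone and fresh membranes, none of the 3 was called in the deposited scaling, but Rpl41, for one, was called higher after median centring, at 0.22.

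Several genes that rose most in culture were not called with dexamethasone in the deposited scaling. Rps27l had 8056.8, 8064.1 and 8261.2 on dexamethasone arrays, all above the incubated ones, with a change of 0.057 ± 0.054 (limma adjusted p = 0.40). Rpl27 and Rps19 changed by 0.0026 ± 0.051 and 0.012 ± 0.051 (adjusted p = 0.97 and 0.86). With the hybridization controls Rps27l, Rpl27 and Rps19 were called lower, at -0.42, -0.47 and -0.46, and Rpl27 was also called lower after quantile normalization, at -0.14. The largest negative change was that of Rps6, with 865.3, 697.5 and 654.3 on dexamethasone arrays and a change of -0.30 ± 0.12 (adjusted p = 0.056). Rpl14 was the gene whose arrays lay wholly below, with 970.2, 892.8 and 1063.1 on dexamethasone arrays and a change of -0.18 ± 0.072 (adjusted p = 0.050, just above the threshold). Rpl39l, not tested, read 177.2, 185.9 and 168.1 on dexamethasone arrays, against 61.3, 66.6 and 38.1 on incubated arrays, all under the floor of 200.

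Within groups, the members tended to be high or low together on an array. Among the 34 strongly hybridized members, dexamethasone array B was the lowest of its group for 30 and array A the highest for 24. Likewise incubated array B was lowest for 27 and array A highest for 28, while fresh array A was lowest for 21 and array C highest for 19. The median deviation of the members from their group means was -0.066 on dexamethasone array B and 0.066 on incubated array A, while that of all tested probe sets lay within 0.0039 of 0 on every array. The median coefficient of variation was 4.59% on dexamethasone, 5.01% on incubated and 2.59% on fresh arrays. Leaving out dexamethasone array A, dexamethasone array C or incubated array B left 9, 10 or 11 genes called higher with dexamethasone in place of 18.

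**Figure D4:**
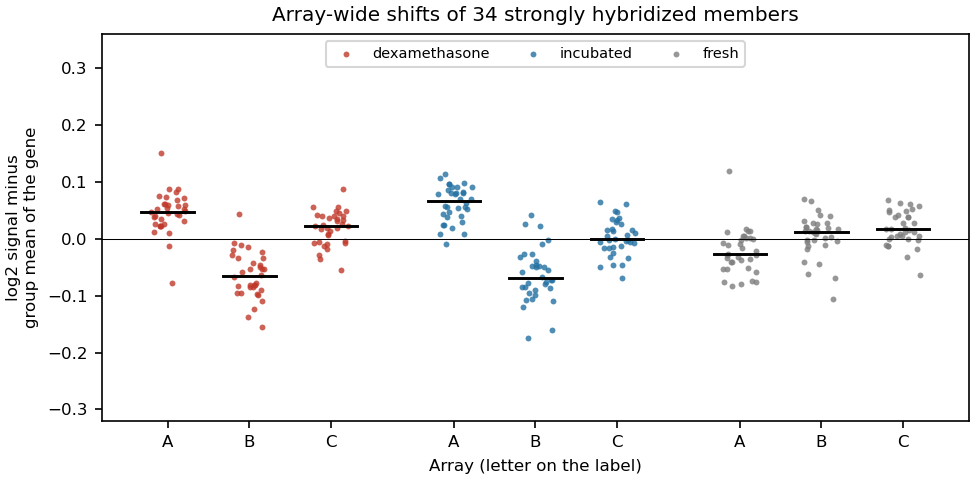
Log2 signal of each of the 34 strongly hybridized members minus the mean of its group, by array, with the median as a black bar. Nearly all members lie below 0 on arrays B of the dexamethasone and incubated groups and above 0 on their arrays A.

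Dexamethasone-treated membranes were also set against fresh ones, a comparison that shares arrays with both others. limma called 36 of 42 higher and 0 lower, also 36 and 0 at an unadjusted p under 0.05, against 37.8% and 38.4% of all tested probe sets, together 76.2%. The median change was 0.41, against -0.0054 for all tested probe sets. The dexamethasone arrays were wholly above the fresh arrays for 35 genes and wholly below for 1, with a background of 38.5% and 39.4%. Rps27l changed by 1.48 ± 0.054 (limma adjusted p = 8.1e-11), Rpl12 by 1.48 ± 0.10, Rpl37 by 1.31 ± 0.10, Rplp0 by 1.00 ± 0.052, Rps19 by 0.93 ± 0.051 and Rpl27 by 0.90 ± 0.051. Rpsa, with 27864.4, 24091.5 and 26892.7 on dexamethasone arrays, rose by 0.72 ± 0.065, and Rps10 by 0.68 ± 0.046. Scaled to the hybridization controls, 26 were called higher and 1, Rps4l, lower, against 29% and 45.1% of all tested probe sets, with a median of 0.26 against -0.15 for all tested probe sets. Rpl13a and Rps4x were called higher, each by 0.13, but had -0.021 and -0.020 when scaled to the hybridization controls. The 3′ to 5′ ratios of beta-actin and Gapdh were below the fresh ones on dexamethasone arrays, at the values given above. Neuron markers summed to 158 to 243 and fibrocyte markers to 3064 to 3320 on dexamethasone arrays, and their part in the result was not tested.

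Most genes with and most genes without the promoter letters shown above were called higher in explants, and a difference between them was not tested. In incubated against fresh membranes, 29 of all 42 tested members were higher and 3 lower, against 35% and 40.1% of all tested probe sets. Of 19 tested genes with CCGGAAG, 14 were higher and 2 lower in that comparison, with a median of 0.37. Of 17 without it, 14 were higher and 0 lower, with a median of 0.26. Rps25 carries the letters and rose by 0.71, while Rplp0 has none of the capitals in its window and rose by 0.88. Rpl41 carries them too, but its probe sets disagreed. With CTTTCC, 8 of 11 genes were higher and 0 lower, with a median of 0.31, and without it 20 of 25 were higher and 2 lower, with a median of 0.28. Rpl35, a protein at the tunnel exit whose start carries both pyrimidine letters, had 20914.2, 18500.2 and 19541.5 on incubated arrays, against 13167.5, 14151.3 and 14373.7 on fresh arrays, a rise of 0.50.

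Most genes that build ribosomes were higher in explants. Of 67 ribosome biogenesis factors tested, 59 were higher and 1 lower in incubated membranes, where all tested probe sets had 35% higher and 40.1% lower. Their median was 0.83, or 0.72 with genes under the floor in fresh membranes taken at their bound. Nhp2, a protein of the box H/ACA particles that pseudouridylate ribosomal RNA, averaged 5494 in incubated and 1332 in fresh membranes, and Fbl, the methyltransferase of the box C/D particles, averaged 4734 and 1728. Of 11 genes of the RNA polymerase I machinery, which transcribes ribosomal RNA, 6 were higher and 2 lower. Its catalytic subunit Polr1a averaged 455 in incubated and 1333 in fresh membranes, a fall that limma called (adjusted p = 3.4e-08). Between dexamethasone and incubated membranes, 18 biogenesis factors were higher and 9 lower, where all tested probe sets had 27.1% and 25.5%. After median centring the counts were 9 and 15, against 18.3% and 36.8% of all tested probe sets. With the hybridization controls they were 0 and 54, against 6.51% and 72.6%. Gnl3, a nucleolar GTPase, averaged 3560 with dexamethasone and 2404 without.

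Factors that work with the ribosome were also measured. In incubated against fresh membranes, 35% of all tested probe sets were called higher and 40.1% lower. Of 31 initiation factors, 22 were higher and 2 lower in incubated membranes, among them Eif6, which keeps free large subunits from joining, with a mean of 6600 in incubated and 2258.5 in fresh membranes. All 18 cytosolic tRNA synthetases tested were higher, with a median of 0.96. Of 12 elongation and termination factors, 6 were higher and 3 lower. Eef1a2, the elongation factor form of neurons and muscle, averaged 130 in incubated and 1610 in fresh membranes, at least 8.05-fold lower. Of 16 other transcripts with a TOP tract, which share the translational control of the ribosomal proteins, 6 were higher and 3 lower, with a median of 0.089 that was -0.0029 after quantile normalization and 0.42 after median centring. Eef1b2, an exchange factor of elongation, rose by 0.51 and Pabpc1, which binds poly(A) tails, by 0.53.

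Regulators of these genes were called in both directions. Of 16 genes of the mTORC1 pathway and TOP control, 6 (37.5%) were higher and 7 (43.75%) lower in incubated membranes. These shares are near the 35% and 40.1% of all tested probe sets. After median centring 9 were higher and 4 lower, where all tested probe sets had 53.5% and 23.6%. Eif4ebp1, the repressor of cap-dependent translation, averaged 2882 in incubated and 327 in fresh membranes, and Pdcd4, an inhibitor of initiation, averaged 1532 and 2738. Ddit4, an inhibitor of mTORC1, averaged 704 with dexamethasone, 1686 without and 933 in fresh membranes. Of 8 genes of the Myc network, 3 were higher and 5 lower. Myc itself was under the floor in fresh membranes and averaged 787 in incubated ones, at least 3.93-fold higher, and its antagonist Mxd4 averaged 1614 in incubated and 3691 in fresh membranes. Of 14 p53 targets other than Rps27l, 10 were higher and 4 lower. Cdkn1a, the cell cycle inhibitor, averaged 8315 with dexamethasone, 5235 without and 2311 in fresh membranes, where Rps27l averaged 8127, 7810 and 2894.

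The proteins of the mitochondrial ribosome, encoded by a separate nuclear gene family, were tested in the same way. Of 76 tested, 66 were higher and 3 lower in incubated against fresh membranes, against 35% and 40.1% of all tested probe sets. Their median was 0.54 beside 0.25 for the cytosolic family. Between dexamethasone and incubated membranes, 2 were higher and 36 lower, against 27.1% and 25.5% of all tested probe sets. The median there was -0.16 beside 0.12 for the cytosolic family. Under quantile normalization, median centring and hybridization controls the mitochondrial median in the second comparison was -0.14, -0.28 and -0.64. The cytosolic family had -0.010, 0.0071 and -0.35 there, and all tested probe sets had -0.020, -0.11 and -0.47. The difference between the families was not tested. Mrpl27 averaged 2260.5 with dexamethasone and 3325 without, and Mrpl52 averaged 6271 in incubated and 2789.8 in fresh membranes.

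**Figure D5:**
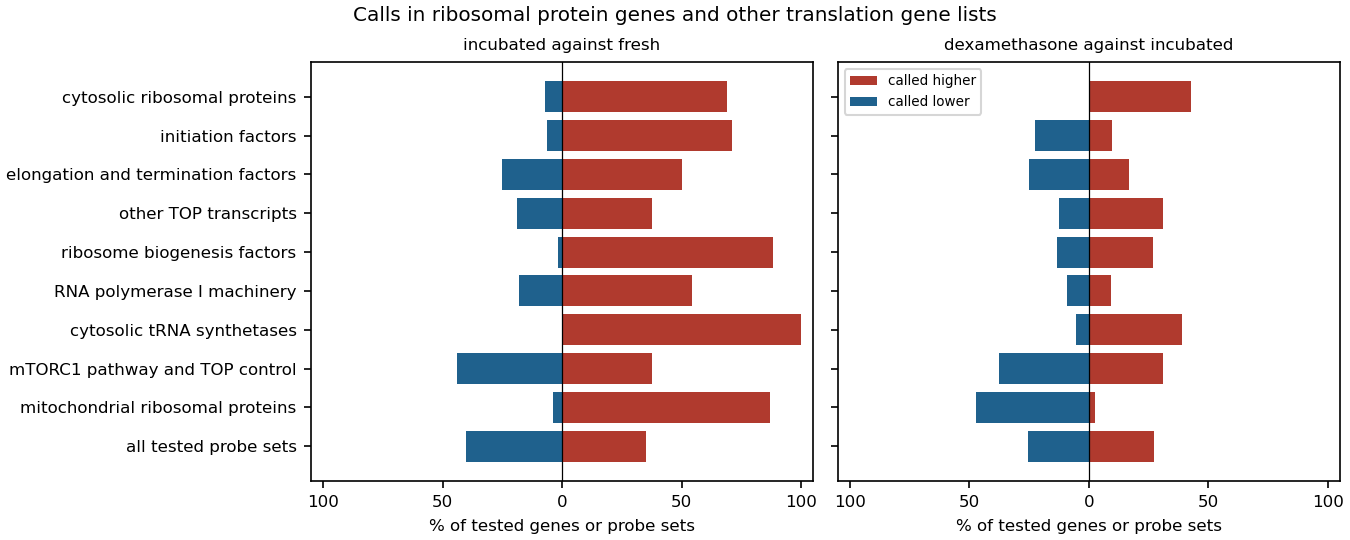
Percent of tested genes called higher (red, to the right) and lower (blue, to the left) in the cytosolic ribosomal proteins, other gene lists of translation and all tested probe sets, for incubated against fresh (left) and dexamethasone against incubated (right). All 18 tRNA synthetases are red on the left; on the right, 18 of 42 cytosolic ribosomal proteins are red and 36 of 76 mitochondrial ones blue.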

How the data were processed

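The 9 arrays were used as 3 groups of 3. Each deposited file gives an intensity on a linear scale for every probe set, and the authors had brought each array to a target of 500 before deposit, per the labels. The labels' protocols name a column kit for small RNA amounts and an amplification in 2 rounds before hybridization. The software that made the signals is not given in the sources used here. Control probe sets (64 of 45101) and those under the filter were left out, leaving 18913 probe sets for 10242 genes. Gene symbols came from the platform annotation, which can be old, updated by gene ID: 34945 probe sets had 1 symbol, 932 several and 9160 none.

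log2(signal + 32) was fitted with limma 3.58.1 in R 4.3.3, with 1 mean per group over all 9 arrays, eBayes with an intensity trend, two-sided tests and Benjamini-Hochberg adjustment over all 18913 probe sets. Fold changes are on that scale, which understates those of low signals. The fit was tested on simulated data. The number of arrays limits the precision, and no detection calls were used. A gene under 200 on all arrays of a group has a bound against 200.

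The text names the 8 called genes with the largest rises and falls whose groups do not overlap, Rpsa, the stalk proteins, Rps6, Rpl11, Rpl13a, Rps4x, paralogues ending in l with their parents, members below the filter, members with opposed probe sets, and up to 4 genes per other list by adjusted p. Pabpc1 and Rpl35 fall outside this rule and, like the promoter letters, were picked after their values or sequences were seen. The members and lists were chosen with earlier results of these data known. Alternatives were quantile normalization, median centring, hybridization controls, other pseudocounts and floors, no trend, 2 groups alone, the array letter as a block, mean and plain probe sets, and leaving out each array.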

Additional observations from a re-analysis of the deposited data

How the results depend on the processing

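Below, counts are of the 42 tested genes unless other probe sets are named, and medians are log2 changes. Only part of the 42 genes have a tested plain probe set, so counts on plain probe sets are not out of 42. Counts on shared probe sets are of 98. Incubated against fresh: plain probe sets without shared probes gave 12 genes higher, 1 lower and a median of 0.46, and probe sets shared with other genes 53, 13 and 0.20. Lower calls were 1 after quantile normalization and 0 after median centring or with hybridization controls, with medians of 0.58 in the last pair, and the mean over a gene's probe sets gave a median of 0.33. Rpl27a, Rpl41 and Rps29 changed by 0.066, 0.11 and 0.17 under median centring and under hybridization controls, Rps29 by 0.064 after quantile normalization, and Rpl41 by 0.073 as a mean of probe sets and 0.44 on its plain probe set. Leaving out 1 array gave 26 to 29 higher, 2 to 3 lower and medians of 0.21 to 0.30. Dexamethasone against incubated: higher calls were 6 (quantile), 5 (median centring), 0 (hybridization controls), 5 (plain) and 41 (shared). Lower calls were 6, 2 and 37 in those scalings, 2 (plain), 3 (shared), and 1 each with a pseudocount of 100, a floor of 400, a replicate block or the mean of probe sets. Medians were -0.010, 0.0071 and -0.35 in the 3 scalings. Higher calls were 12 each without the trend, without the filter or with the 2 groups alone. Under hybridization controls the changes were -0.077 for Rpl12, -0.21 for Rpl37a, -0.24 for Rpl41, -0.27 for Rpl8, -0.23 for Rplp2, -0.15 for Rps10, -0.15 for Rps15, -0.26 for Rps29 and -0.34 for Rps4x, and Rps4x had -0.034 after quantile normalization. Leaving out 1 array gave 9 to 23 higher, 0 to 2 lower and medians of 0.091 to 0.16, with 9, 10 and 11 higher without dexamethasone A, dexamethasone C and incubated B. Dexamethasone against fresh: higher calls were 13 (plain) and 64 (shared), and lower calls 1 each with hybridization controls and on shared probe sets. Medians were 0.27 (quantile), 0.62 (median centring), 0.26 (hybridization controls), 0.55 (plain) and 0.28 (shared). Rpl13a and Rps4x had -0.021 and -0.020 with hybridization controls. Leaving out 1 array gave 31 to 36 higher, 0 lower and medians of 0.37 to 0.45. With the array letter as a replicate block, higher and lower calls were 29 and 3, 20 and 1, and 36 and 0 in the 3 comparisons in this order. Deviations of same-letter arrays from different groups correlated at r = -0.062 to 0.164 over all tested probe sets, and those of other pairs at -0.157 to 0.153. These values do not settle whether the letters pair the arrays. The cause of these differences was not tested, beyond the smaller or larger number of probe sets in the plain and shared settings. The number of arrays and signals near the top of the range limit the precision.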

Other observations

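Rpl22l1 and Rpl7l1, relatives of ribosomal protein genes whose symbols fall outside the choice of genes above, were also measured. Rpl22l1, the paralogue of Rpl22, changed by 0.086 between incubated and fresh membranes, by -0.098 between dexamethasone and incubated membranes and by -0.012 between dexamethasone and fresh membranes, and limma called none of these. Rpl7l1, a paralogue of Rpl7, rose by 0.54 in incubated against fresh membranes and by 0.68 in dexamethasone against fresh membranes, and its change of 0.14 between dexamethasone and incubated membranes was not called. With these 2 added to the 42 genes, 30, 18 and 37 were called higher in incubated against fresh, dexamethasone against incubated and dexamethasone against fresh membranes.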
